A study of Mus musculus with 16 samples.

Results

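The genes examined encode subunits of SAGA, TFIID and Mediator, the large coactivator and initiation complexes that RNA polymerase II (Pol II) needs at promoters. They were taken from the GENCODE M21 annotation as the autosomal protein-coding genes whose symbol begins with Med or Taf and a digit, with Tbp, Tada1, Tada2a, Tada2b, Tada3, Supt3, Supt7l, Supt20, Sgf29, Kat2a, Kat2b and Trrap added by name, and they number 60 of 20807 autosomal protein-coding genes. Of the 60, 12 belong to SAGA, 11 to TFIID, 3 to both complexes and 28 to Mediator. Also among them are Tada2a, added by name, whose product is the adaptor of the related ATAC complex, and 5 genes that the symbol rule takes in, Taf1a, Taf1b, Taf1c and Taf1d of the RNA polymerase I selectivity factor and Taf15, which encodes an RNA-binding protein of the FET family.

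Chromatin immunoprecipitation and sequencing (ChIP-seq) with antibodies against RPB1, a catalytic subunit of Pol II, and against histone H2B monoubiquitylated on its C-terminal tail (H2Bub1) was carried out on mouse cells of the strain DBA/2 x C57BL/6. Embryonic stem cells (mESCs) derived from blastocysts and fibroblasts (MEFs) made from E10.5 embryos without head and gut were either Atxn7l3+/+ (WT) or Atxn7l3-/-. The mESCs of both genotypes were grown with LIF, 1 uM PD0325901 and 3 uM CH99021, first on feeders and then without them, and no specific treatment was given to either cell type. The peak lists of 8 libraries, 1 per group, were analysed, and another 8 samples (chromatin inputs and Ser2-phosphorylated Pol II) were not analysed here. The knockout comes from a germline allele whose construct had loxP sites around exons 2 to 12, and 1 library of each kind cannot separate genotype from the particular line or embryo used. Because there are no replicates, no difference below has a replicate check and no test across libraries was possible.

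SAGA is a modular coactivator in which KAT2A or KAT2B acetylates histones, a separate module built on ATXN7L3 removes ubiquitin from H2B, and TRRAP binds transcription activators. TFIID, made of TBP and the TBP-associated factors (TAFs), recognises core promoters and starts assembly of the preinitiation complex, and several TAFs sit in SAGA as well. Mediator passes signals from activators to Pol II through its head, middle and tail modules, with a kinase module that associates reversibly. The question for these genes is whether Pol II at their promoters and H2Bub1 over their bodies differed between cells with and without the deubiquitylation adaptor of one of the complexes they encode.

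To show the promoters the Pol II results turn on, sequence just upstream of the start was read from RefSeq promoter windows (GRCm38.p6). A window was found for 52 of 60 members and equalled the genome sequence for all 52. Taf2, Taf4b, Taf7, Med8, Med23, Med24, Med30 and Tada1 had none. The RefSeq start lay within 50 bp of the annotated transcription start site (TSS) for 42 of these 52, and more than 500 bp away for Med12l, Med15, Supt7l, Taf11 and Trrap. Shown are the 3 members with the highest promoter fold in WT MEFs (Taf13, chr3:108571449-108571697, plus strand, Taf12, chr4:132274125-132274374, plus strand, and Taf4, chr2:179976647-179976852, minus strand), Tbp (chr17:15499752-15499887, plus strand), whose peak was called in WT mESCs and not in Atxn7l3-/- mESCs, and the 3 members with the reverse pattern (Supt3, chr17:44776916-44777151, plus strand, Tada2b, chr5:36484286-36484535, minus strand, and Tada3, chr6:113377884-113378088, minus strand). Each run is written 5′ to 3′ on the strand of the gene and leaves out bases that any annotated exon covers. Capitals mark matches to the motifs listed after the sequences.
Taf13: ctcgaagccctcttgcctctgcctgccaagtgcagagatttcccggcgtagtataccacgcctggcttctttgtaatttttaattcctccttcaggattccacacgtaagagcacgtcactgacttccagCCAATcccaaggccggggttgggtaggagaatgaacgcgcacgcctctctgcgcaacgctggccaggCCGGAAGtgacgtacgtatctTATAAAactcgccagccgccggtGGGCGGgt
Taf12: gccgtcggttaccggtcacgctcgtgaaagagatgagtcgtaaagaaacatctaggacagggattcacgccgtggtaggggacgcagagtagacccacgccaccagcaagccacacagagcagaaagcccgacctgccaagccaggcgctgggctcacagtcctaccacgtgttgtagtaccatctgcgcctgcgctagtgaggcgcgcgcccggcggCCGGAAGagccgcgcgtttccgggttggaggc
Taf4: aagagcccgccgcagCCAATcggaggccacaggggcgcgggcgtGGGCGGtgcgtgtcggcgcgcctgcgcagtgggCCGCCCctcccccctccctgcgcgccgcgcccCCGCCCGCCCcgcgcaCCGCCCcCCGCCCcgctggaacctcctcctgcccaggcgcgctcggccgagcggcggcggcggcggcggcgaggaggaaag
Tbp: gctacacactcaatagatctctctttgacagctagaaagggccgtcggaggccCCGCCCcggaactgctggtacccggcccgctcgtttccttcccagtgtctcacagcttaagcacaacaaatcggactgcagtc
Supt3: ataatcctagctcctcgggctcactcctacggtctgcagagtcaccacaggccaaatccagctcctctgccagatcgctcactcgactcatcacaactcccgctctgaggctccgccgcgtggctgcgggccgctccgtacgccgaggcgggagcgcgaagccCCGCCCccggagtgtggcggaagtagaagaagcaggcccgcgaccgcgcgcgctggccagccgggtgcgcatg
Tada2b: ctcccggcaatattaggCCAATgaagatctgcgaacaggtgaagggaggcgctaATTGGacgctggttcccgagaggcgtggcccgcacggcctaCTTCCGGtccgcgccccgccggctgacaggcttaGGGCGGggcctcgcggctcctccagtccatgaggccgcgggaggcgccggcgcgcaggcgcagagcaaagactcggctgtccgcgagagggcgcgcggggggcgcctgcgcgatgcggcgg
Tada3: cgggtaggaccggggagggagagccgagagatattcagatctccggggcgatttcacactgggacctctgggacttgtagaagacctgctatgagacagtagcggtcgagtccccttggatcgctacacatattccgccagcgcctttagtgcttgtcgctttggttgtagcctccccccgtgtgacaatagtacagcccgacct

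The motifs were searched by exact letters on both strands in the 250 bases upstream of the RefSeq start. The GC box (GGGCGG) was present in 33 of 52 members, against 45% of the windows of 15686 genes. The ETS core (CCGGAAG) was present in 11 of 52, against 9.7% of all windows. The CCAAT box (CCAAT) was found in 19 of 52 (35.7% of all) and the TATA box (TATAAA) in 5 of 52 (12% of all). A median of 17 CG dinucleotides stood in the members' 250 bases, against 11 over all windows. Overlapping GC boxes in the Taf4 promoter share bases. Taf13, with the highest promoter fold in WT MEFs, was the printed promoter that held a TATA box, and Tada3 held none of the 4 motifs in the bases printed. Matches of letters are descriptions and say nothing of the factors that bind there.

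The Pol II lists held 17074 peaks in WT and 11963 in Atxn7l3-/- mESCs, and 45870 and 32232 in MEFs. Those of H2Bub1 held 40979 and 48952 peaks in mESCs, and 19725 and 28856 in MEFs. Read depth is unknown, and a list with more peaks gives more genes a peak whatever the genotype, so the counts of members in WT against Atxn7l3-/- were repeated with equal numbers of peaks. The counts between cell types were not. As a check of the labels, 5 of 6 pluripotency genes (Esrrb was the exception) had a Pol II promoter peak in both mESC lists and 0 of 4 fibroblast genes did, whereas all 4 fibroblast genes had one in both MEF lists. Klf4 had a peak in both MEF lists as well, and Tfcp2l1 in the Atxn7l3-/- MEF list. Another protein-coding TSS lay within 1000 bp of 16 of 60 members (12.9% of all genes), for example Cnpy4 34 bp from Taf6, Tada2a 72 bp from Acaca, Rpl7a 87 bp from Med22 and Psmb1 137 bp from Tbp. A peak there cannot be assigned to either gene of the pair. At the targeted gene, Atxn7l3, the span from exon 2 to exon 12 of the transcripts with 13 exons (chr11:102291898-102295059, minus strand) was inside H2Bub1 peaks over 100% in WT and 13.03% in Atxn7l3-/- mESCs and over 21.6% and 19.6% in MEFs, and inside Pol II peaks over 20.7% and 11.9%, then 19.3% and 10.9%. Peaks over part of this span were thus called in all 4 Atxn7l3-/- lists. The exon numbers of the construct are not tied to a transcript in the sources used here, so the check is approximate.

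In mESCs, Pol II was called at Taf3, Taf7, Taf11 and Med25 in WT only and at Supt3, Tada2b and Tada3 in Atxn7l3-/- only, also when the lists were given equal numbers of peaks. A promoter peak, meaning any overlap with the window 1000 bp on either side of the TSS, was present at 39 of 60 members in WT (65.0%, 95% Clopper-Pearson interval 51.6 to 76.9; 35.3% of all genes) and at 34 of 60 in Atxn7l3-/- mESCs (56.7%, interval 43.2 to 69.4; 32.1% of all genes). Of the 60, 31 had it in both, 8 in WT only (8.04% of all genes), 3 in Atxn7l3-/- only (4.85% of all genes) and 18 in neither (59.9% of all genes). Among members with a WT peak, 8 of 39 (20.5%) had none in Atxn7l3-/- mESCs, beside 22.8% over all genes with a WT peak.

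**Figure D1:**
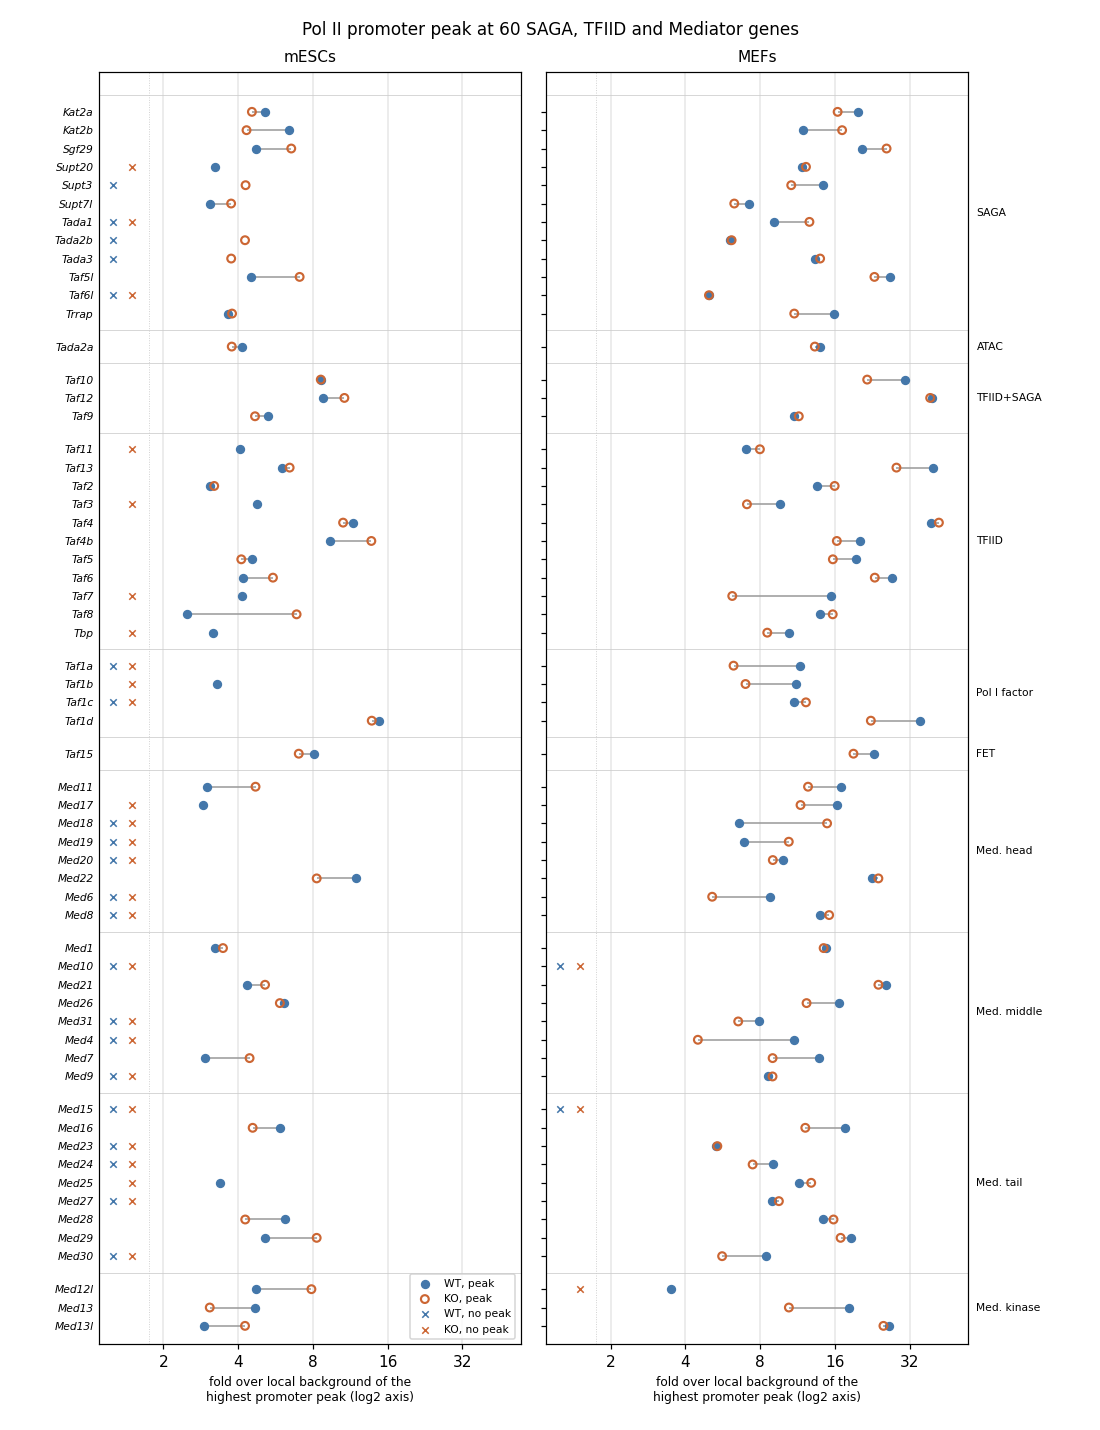
Pol II promoter peaks at the 60 members, by complex, in mESCs (left) and MEFs (right), with filled and open circles for the fold over local background of the highest promoter peak in the WT and Atxn7l3-/- (KO) list (log2 axis) and crosses at the left edge for a list with no promoter peak. Values run from 2.49 to 14.7 in WT mESCs and from 3.51 to 39.9 in WT MEFs.

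The 8 members with a promoter peak in WT mESCs only had modest peaks, with a median fold over local background of 3.34 (range 2.89 to 4.78), against 4.71 for the 31 members with a peak in both lists. Over all genes the same medians were 3.60 and 4.79. TFIID gave 4 of the 8. Taf3, whose protein carries a finger that reads methylated histone H3 (chr2:9914552-10048596, minus strand), had a fold of 4.78 in WT with its summit 148 bp past the TSS. In the Atxn7l3-/- list the nearest Pol II peak lay 1452811 bp away. For Taf7, which encodes the TAF1-binding subunit, the WT fold was 4.16 and the nearest Atxn7l3-/- peak lay 182680 bp away. Both promoters thus had no called peak anywhere near the start in that list. Taf11, whose product pairs with TAF13, had a WT fold of 4.08 and a summit 597 bp past the TSS, close to a RefSeq start 602 bp inside the record. Tbp, the gene of the TATA-binding protein, had 3.16.

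The other 4 came from different complexes. Supt20, a SAGA core gene, had a WT fold of 3.22. Med17, the scaffold of the Mediator head, had 2.89 and Med25, a tail subunit bound by activators, had 3.38. Taf1b of the Pol I factor had 3.29. These 4 folds were below the members' WT median of 4.57, and the same 8 members had a Pol II promoter peak in both MEF lists. With equal numbers of peaks, Med25, Taf11, Taf3 and Taf7 remained in WT only. With the promoter from 100 bp upstream to 300 bp downstream, Taf11 left this class and the other 7 remained.

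The 3 promoters with a peak in Atxn7l3-/- mESCs only were all SAGA genes. Supt3, whose product resembles the TAF11 and TAF13 histone-fold pair, had a fold of 4.28 with the summit 20 bp past the TSS. Tada2b, the SAGA-specific adaptor of the acetyltransferase module, had 4.26 with the summit 22 bp upstream (-22 bp). Tada3, an adaptor of the same module, had 3.75 with the summit at -112 bp, and Arpc4 starts 232 bp from it. The nearest WT peaks lay 605363, 18701 and 11955 bp away. With equal numbers of peaks there were 7 members in Atxn7l3-/- only, these 3 with Med7, Supt7l, Taf2 and Taf8. In that setting 4 were in WT only, so which class was larger turned with list length. Shares over all genes in that setting are not given here. In the main setting the 3 members were 5% of the 60, near the 4.85% of all genes.

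At the 31 members with a peak in both mESC lists the folds were close. The median log2 ratio of Atxn7l3-/- over WT fold was 0.06 (range -0.60 to 1.47, 95% interval of the median -0.13 to 0.40), against 0.02 over 5663 genes. It was positive at 18 and negative at 13 of the 31. A fold at least 1.5 times higher in Atxn7l3-/- was seen at 6 of the 31 (19.4%, interval 7.45 to 37.5), against 10.8% of all genes with a peak in both lists (2.93% of all genes). A fold at least 1.5 times lower was seen at 1 of the 31 (3.23%), against 10.9% of all genes with a peak in both (2.97% of all genes). The 6 were Taf8 (2.49 in WT and 6.87 in Atxn7l3-/-), whose product pairs with TAF10, Med12l (4.71 and 7.89), Med29 (5.12 and 8.28), Med11 (3.00 and 4.70), Taf5l (4.49 and 7.07) and Med7 (2.95 and 4.44). The 1 was Med13 of the kinase module (4.66 and 3.07), with summits at -648 and -678 bp. With the promoter from 100 bp upstream to 300 bp downstream, 0 members had this lower fold. Taf8 stood apart, with a ratio of 2.76 from a WT peak whose -log10 q was 2.22. The Med29 summits lay upstream of its TSS, at -285 and -357 bp, and Paf1 starts 243 bp away.

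In MEFs, Pol II was at almost every member. A promoter peak was present at 58 of 60 in WT (55.3% of all genes) and at 57 of 60 in Atxn7l3-/- MEFs (52.3% of all genes). Of the 60, 57 had it in both (50.8% of all genes), 1 in WT only (4.43% of all genes) and 0 in Atxn7l3-/- only (1.51% of all genes). The loss of 1 of 58 WT peaks (1.72%) compares with 8.01% over all genes with a WT peak. The median log2 ratio over the 57 was -0.14 (range -1.33 to 1.17, 95% interval of the median -0.29 to 0.01), against -0.22 over 10576 genes and -0.27 over 31 other genes of the pathway. A ratio below 1 was seen at 36 of the 57 members and above 1 at 21.

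A fold at least 1.5 times lower in Atxn7l3-/- MEFs was seen at 9 of the 57 (15.8%, interval 7.48 to 27.9), against 23.9% of all genes with a peak in both lists (12.2% of all genes). A fold at least 1.5 times higher was seen at 2 of the 57 (3.51%), against 5.76% of all genes with a peak in both (2.93% of all genes). Over the 15 members with a peak in both that lie at least 5000 bp from another gene the order turned round, with a lower fold at 6 of 15 (40%) against 26.4% of 3629 such genes, and a median log2 ratio of -0.50 against -0.24. Taf7, which had a peak in WT mESCs and none in Atxn7l3-/- mESCs, had 15.5 in WT and 6.18 in Atxn7l3-/- MEFs. Its ratio of 0.398 was the lowest in MEFs. Among the other members with that mESC pattern, Med17, Taf3, Taf1b and Tbp had a lower fold in Atxn7l3-/- MEFs. Med25, Supt20 and Taf11 had a higher one. Med4 of the middle module had 10.9 and 4.49. The 3 Pol I factor genes Taf1a (11.6 and 6.25), Taf1b (11.2 and 6.99) and Taf1d (35.2 and 22.3) were on the lower side too, while Taf1c had 10.9 and 12.2. The others were Med13 (18.2 and 10.4), Med6 (8.78 and 5.13), Med7 (13.9 and 8.98) and Med30 (8.45 and 5.62). The 2 with a higher fold were the head subunit genes Med18 (6.60 and 14.9) and Med19 (6.86 and 10.4). Med13 was therefore lower by this measure in both cell types, and Med7 was higher in mESCs and lower in MEFs. The Med13 summits lay upstream of its TSS in every Pol II list, and the narrower promoter left no such mESC call.

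Med12l, the kinase-module paralogue of the X-linked Med12, was the member with a MEF peak in WT only (chr3:59005825-59318682, plus strand). Its fold was 3.51 in WT MEFs, the lowest of the members in that list, with the summit 1137 bp past the annotated TSS and close to the RefSeq start 1153 bp inside the record. In Atxn7l3-/- MEFs no Pol II peak lay within 313056 bp of the TSS. In mESCs the same gene had 4.71 in WT and 7.89 in Atxn7l3-/-, with summits at -235 and 142 bp. Its called peaks thus lay at different places in the cell types. The peak fell outside the promoter when the window ran from 100 bp upstream to 300 bp downstream, so WT only then held 0 members in MEFs and Atxn7l3-/- only held 1, Supt7l.

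Between cell types, every promoter with a WT peak in mESCs also had one in MEFs. In WT, 39 of 60 members had a promoter peak in both cell types (33.4% of all genes), 19 in MEFs only (21.9% of all genes) 0 in mESCs only (1.9% of all genes) and 2 in neither (42.8% of all genes). In Atxn7l3-/- cells the counts were 33 (30.5% of all genes), 24 (21.9% of all genes) and 1 (1.61% of all genes), the 1 being Med12l. The median fold was 4.57 in WT and 4.69 in Atxn7l3-/- mESCs and 13.9 and 12.3 in MEFs, and over all genes 4.39, 4.53, 13.3 and 11.6. Since each fold is taken over the background of its library and the MEF lists are longer, the higher MEF values do not measure more polymerase. A promoter peak stood in all 4 lists at 30 of 60 members (26.1% of all genes).

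Med10 of the middle module and Med15 of the tail had no promoter peak in any list (none in 41.1% of all genes). Both had Pol II at another annotated protein-coding start. For Med10 that start lay 7446 bp inside the record, with a fold of 3.43 in WT mESCs, no peak in Atxn7l3-/- mESCs, 12.8 in WT MEFs and 12.5 in Atxn7l3-/- MEFs. For Med15 it lay 10070 bp inside, with no peak in WT mESCs, 4.93 in Atxn7l3-/- mESCs, 26.5 in WT MEFs and 11.1 in Atxn7l3-/- MEFs. With every annotated protein-coding start allowed, 60 of 60 members had a promoter peak in WT MEFs (58.2% of all genes) and 59 in Atxn7l3-/- MEFs (55.3% of all genes).

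By complex, the TFIID promoters had a peak at 11 of 11 in WT and 7 of 11 in Atxn7l3-/- mESCs, beside 35.3% and 32.1% of all genes. With equal numbers of peaks the WT count was 8 of 11 beside 7 in Atxn7l3-/-, since Tbp, Taf2 and Taf8 had their WT calls among the weakest peaks, and with a −log10 q of at least 3 it was 9 of 11. In both MEF lists all 11 had a peak, beside 55.3% of all genes in WT and 52.3% in Atxn7l3-/-. These mESC and MEF all-gene shares also stand beside the SAGA and Mediator counts that follow. With equal numbers of peaks the all-gene shares are not given here. The 12 SAGA promoters had it in 7 and 9 of 12 in mESCs and in 12 of 12 in both MEF lists, and in mESCs with equal numbers of peaks in 5 and 9 of 12. Mediator had it at 14 and 12 of 28 in mESCs, at 12 in both with equal numbers of peaks, and at 26 and 25 of 28 in MEFs. Within Mediator, the kinase module had 3 of 3 in both mESC lists, the middle module 4 of 8 in both, the head 3 and 2 of 8, and the tail 4 and 3 of 9. The mESC peaks of Med13 and Med13l lay upstream of the TSS without reaching it. Taf9, Taf10 and Taf12, which serve TFIID and SAGA alike, had a peak in every list (26.1% of all genes). Taf10 had 8.58 in WT and 8.60 in Atxn7l3-/- mESCs and 30.5 and 21.6 in MEFs.

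The strongest peaks belonged to few genes. In WT mESCs they were Taf1d (14.7), Med22 (11.97) and Taf4 (11.6), and in Atxn7l3-/- mESCs Taf1d (13.8), Taf4b (13.7) and Taf12 (10.7). The Med22 summits lay upstream of its TSS in all 4 lists, on the side of the ribosomal protein gene Rpl7a. In WT MEFs they were Taf13 (39.9), Taf12 (39.4) and Taf4 (39.2), and in Atxn7l3-/- MEFs Taf4 (42.0), Taf12 (38.7) and Taf13 (28.3). TAF4 and TAF12 form a histone-fold pair in the TFIID core, and their genes had high folds in both MEF lists. Order was kept more closely in MEFs, with a Spearman's rho of WT against Atxn7l3-/- fold of 0.81 over 57 members (0.74 over all genes), than in mESCs, with 0.64 over 31 (0.53 over all genes). The points share a library and its depth.

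The paralogue pairs are given side by side. Kat2a, the GCN5 acetyltransferase gene, had 5.13 in WT and 4.54 in Atxn7l3-/- mESCs and 19.9 and 16.4 in MEFs. Its paralogue Kat2b (PCAF) had 6.44 and 4.32 in mESCs and 11.9 and 17.1 in MEFs. Taf4 had 11.6 and 10.6 in mESCs and 39.2 and 42.0 in MEFs, whereas Taf4b, known for its role in germ cells, had 9.40 and 13.7 and then 20.3 and 16.3. The core TFIID gene Taf5 had 4.57 and 4.12, then 19.5 and 15.7, and its SAGA counterpart Taf5l had 4.49 and 7.07, then 26.6 and 23.1.

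Taf6 had 4.19 and 5.52 in mESCs and 27.2 and 23.2 in MEFs. Taf6l, which replaces it in SAGA, had no promoter peak in mESCs of either genotype and 4.99 and 4.98 in MEFs. Tada2a had 4.13 and 3.77, then 14 and 13.3, and Tada2b had no peak and 4.26, then 6.04 and 6.14. Tada2b and Taf6l therefore had the lower values of their pairs in MEFs. Med13 had 4.66 and 3.07, then 18.2 and 10.4. Med13l had 2.91 and 4.26, then 26.5 and 25.1, so the ratio of Atxn7l3-/- over WT ran in opposite directions for this pair in mESCs. Trrap had 3.63 and 3.78, then 15.9 and 11, with summits 435 to 486 bp past the annotated TSS, and Tbp had 10.4 and 8.55 in MEFs, where the WT peak also covered the Psmb1 start and had its summit at -1600 bp.

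Pol II peaks inside the gene, more than 1000 bp past the TSS, were less common. They were found at 13 of 60 members in WT (20.9% of all genes) and 10 of 60 in Atxn7l3-/- mESCs (13.6% of all genes), with 6 in WT only (9.93% of all genes) and 3 in Atxn7l3-/- only (2.62% of all genes). In MEFs they were found at 33 of 60 in WT (42.2% of all genes) and 23 of 60 in Atxn7l3-/- (34% of all genes). In MEFs 10 of 60 had one in WT only (11.4% of all genes) and 0 in Atxn7l3-/- only (3.1% of all genes). With equal numbers of peaks the MEF counts were 30 and 23, with 9 in WT only and 2 in Atxn7l3-/- only. In mESCs they were then 12 and 10, with 5 in WT only and 3 in Atxn7l3-/- only. All-gene shares in that setting are not given here. Taf10 was covered over 100% of this stretch in both MEF lists, and Taf1d over 94.2% in WT and 58.8% in Atxn7l3-/- MEFs. Taf11 had 50.5% and 11.6%, and Tbp 32.1% and 6.39%. Taf10, Taf1d, Taf11 and Tbp each overlap another protein-coding gene, so body peaks there cannot be assigned to the member alone. Med11, the shortest member, had the reverse order, with 50.3% in WT and 100% in Atxn7l3-/- MEFs. Med24 was also higher in Atxn7l3-/- MEFs, with 0.357 kb covered in WT and 1.402 kb (5.88%) in Atxn7l3-/-. The MEF values were nearly equal at Supt7l (0.417 kb in WT and 0.459 kb, or 3.75%, in Atxn7l3-/-). They were also nearly equal at Med21 (0.118 kb in WT and 0.119 kb, or 1.66%, in Atxn7l3-/-). The body counts are sensitive to where the body is taken to begin, and from 300 bp past the TSS they were 95% of members in WT and 90.0% in Atxn7l3-/- MEFs (59.8% and 55.5% of all genes).

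H2Bub1, which marks transcribed gene bodies, covered more of nearly every member in Atxn7l3-/- cells. A gene was counted when an H2Bub1 peak overlapped it. In mESCs 54 of 60 members had one in WT (55.7% of all genes) and 60 of 60 in Atxn7l3-/- (62.1% of all genes). In MEFs 40 of 60 had one in WT (31.7% of all genes) and 59 of 60 in Atxn7l3-/- (54.3% of all genes). Many WT calls were weak. With a −log10 q of at least 3, 31 members had a peak in WT and 54 in Atxn7l3-/- mESCs, and 5 and 56 in MEFs, with 51 in Atxn7l3-/- MEFs only. Over all genes these shares were 22.2%, 44.9%, 5.76%, 49.4% and 43.7%, so the WT MEF count dropped for all genes as well. The share of gene length inside H2Bub1 peaks was larger in Atxn7l3-/- at 55 of 60 members in mESCs (91.7%, interval 81.6 to 97.2; 54.2% of all genes) and at 59 of 60 in MEFs (98.3%; 53.8% of all genes), and at 54 of 60 in both (44.6% of all genes). The all-gene shares include the many genes with an equal share in both genotypes. Over all genes the share was larger in Atxn7l3-/- at 11283 and smaller at 2045 in mESCs. In MEFs it was larger at 11200 and smaller at 110, so a rise in MEFs was not particular to the members. Of the members with a Pol II promoter peak, 34 of 34 in Atxn7l3-/- mESCs and 57 of 57 in Atxn7l3-/- MEFs had an H2Bub1 peak, beside 97.8% and 93.3% of all genes with a promoter peak.

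The median covered share of the members was 27.0% in WT and 41.5% in Atxn7l3-/- mESCs (1.31% and 6.66% over all genes), and 6.83% and 57.8% in MEFs (0% and 6.37% over all genes). The WT values rested on weak peaks, since with a −log10 q of at least 3 the medians were 0.527% and 23.3% in mESCs and 0% in WT MEFs. Per member the median difference was 16.8 percentage points in mESCs (range -12.6 to 86.2) and 37.9 in MEFs (range -0.26 to 100). In length, the median covered stretch was 3.85 kb and 5.90 kb in mESCs and 1.27 kb and 7.35 kb in MEFs. The WT median was thus lower in MEFs and the Atxn7l3-/- median higher. In WT, 41 of 60 members had the larger share in mESCs (43.2% of all genes) and 16 in MEFs (14.8% of all genes), and in Atxn7l3-/- cells 37 of 60 had it in MEFs (35% of all genes). The highest H2Bub1 peak fold in a gene had a median of 3.11 in WT and 3.78 in Atxn7l3-/- mESCs and 3.19 and 3.68 in MEFs.

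**Figure D2:**
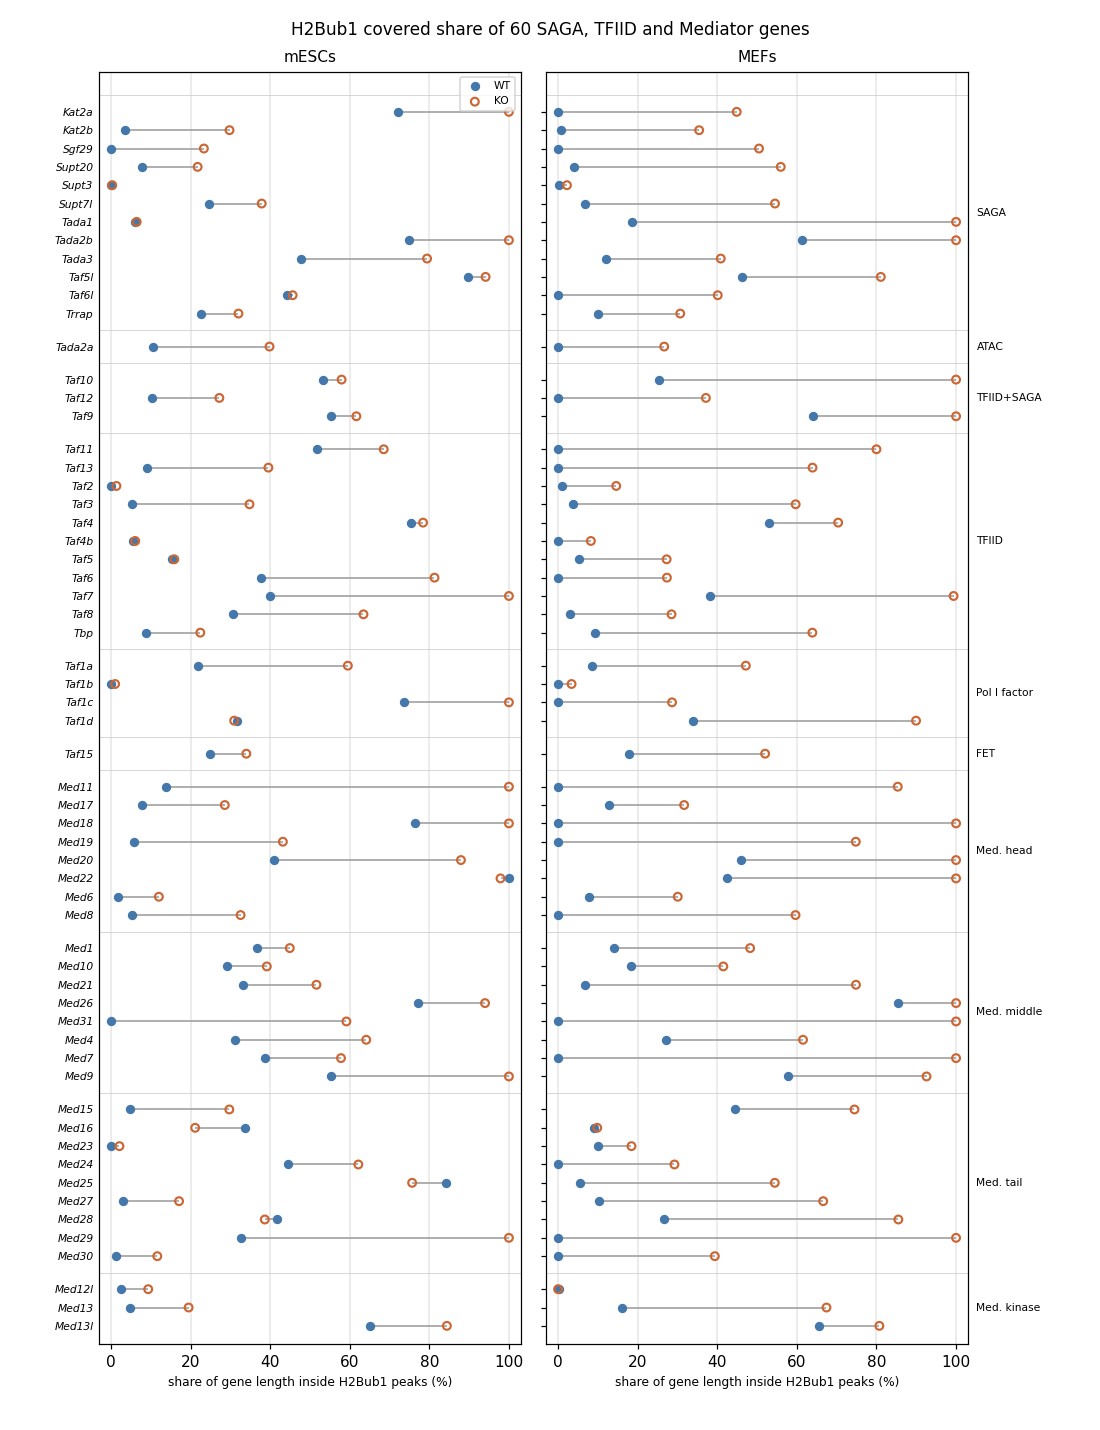
Share of gene length inside H2Bub1 peaks (%) at the 60 members, by complex, in mESCs (left) and MEFs (right), with filled circles for WT, open circles for Atxn7l3-/- (KO) and a line joining the values of a gene. In MEFs the open circle lies to the right at 59 of 60 members, Med12l being the exception.

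In mESCs the largest differences were at short Mediator and TFIID genes. Med11 of the head module (chr11:70451919-70453727, plus strand, 1.81 kb) was covered over 13.8% in WT and 100% in Atxn7l3-/-. Med29 of the tail had 32.7% and 100%, and Taf7 had 39.9% and 100%. Med31, a conserved middle subunit gene, had no H2Bub1 peak in WT and 59.2% in Atxn7l3-/-. Med20 had 41.0% and 87.9%. Of these 5, Med31 and Med20 had no Pol II promoter peak in mESCs of either genotype, and Taf7 had one in WT only. Taf7 and Med20 overlap another protein-coding gene, and Med11 and Med29 lie 256 and 243 bp from one. Coverage there cannot be assigned to the member alone.

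The 5 members with a smaller share in Atxn7l3-/- mESCs were Med16 (33.7% in WT and 21.2%), Med25 (84.3% and 75.7%), Med28 (41.7% and 38.7%), Med22 (100% and 97.9%) and Taf1d (31.7% and 31.0%), and a smaller share was seen at 9.83% of all genes. Med16, Med25 and Med28 belong to the Mediator tail. All 5 had a WT Pol II promoter peak, and the Pol II fold was lower in Atxn7l3-/- at Med16 (5.89 and 4.57), Med28 (6.20 and 4.27), Med22 (11.97 and 8.28) and Taf1d (14.7 and 13.8), with no Atxn7l3-/- peak at Med25. The differences at Med22 and Taf1d were under 3 percentage points. Med16 (chr10:79894708-79908923, minus strand) held 4 H2Bub1 peaks in WT and 2 in Atxn7l3-/-.

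In MEFs, Med7, Med18, Med29 and Med31 had no H2Bub1 peak in WT and were covered over 100% in Atxn7l3-/-. Med11 had 0% and 85.4%. Med11, Med29 and Med31 were also among the 5 largest differences in mESCs. In all, 20 of 60 members had an H2Bub1 peak in Atxn7l3-/- MEFs only (22.9% of all genes), and 6 of 60 in Atxn7l3-/- mESCs only (9.53% of all genes). Full coverage of the gene was reached by 11 of 60 members in Atxn7l3-/- MEFs (6% of all genes) and 8 of 60 in Atxn7l3-/- mESCs (5.16% of all genes), with Tada2b, Med18 and Med29 in both lists. Tada2b had 74.9% and 100% in mESCs and 61.4% and 100% in MEFs. In WT, full coverage was seen at 1 of 60 in mESCs (1.55% of all genes), Med22, and at 0 of 60 in MEFs (0.207% of all genes).

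The smallest differences in MEFs were at Med12l (0.26% in WT and no peak in Atxn7l3-/-), Med16 (9.0% and 9.83%), Supt3 (0.295% and 2.23%), Taf1b (0% and 3.38%) and Taf4b (0% and 8.24%). Med12l was the 1 member with an H2Bub1 peak in WT MEFs only (0.293% of all genes). It was also the member with neither a Pol II promoter peak nor an H2Bub1 peak in Atxn7l3-/- MEFs, and in mESCs its share was 2.46% in WT and 9.36% in Atxn7l3-/-. Med16 had a Pol II peak in all 4 lists, with 17.6 and 12.2 in MEFs, and yet was among the smallest in both cell types. Supt3 (chr17:44777152-45119290, plus strand), the longest member with 342 kb, had 1.01 kb covered in WT and 7.62 kb in Atxn7l3-/- MEFs. No H2Bub1 peak lay on Supt3, Sgf29, Taf1b, Taf2, Med23 or Med31 in WT mESCs. In Atxn7l3-/- mESCs Sgf29 had 23.4%, Med23 2.14%, Taf2 1.38%, Taf1b 1.05% and Supt3 0.331%.

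By complex, the median share of SAGA genes was 23.6% in WT and 35.0% in Atxn7l3-/- mESCs and 5.41% and 47.7% in MEFs. That of TFIID genes was 15.3% and 39.6%, then 2.97% and 59.7%. That of Mediator genes was 31.9% and 48.3%, then 9.50% and 71.0%. All 12 SAGA, 11 TFIID and 3 shared genes had a larger share in Atxn7l3-/- in both cell types, and 24 of 28 Mediator genes did in mESCs. Kat2a had 72.1% and 100% in mESCs and 0% and 44.9% in MEFs, while Kat2b had 3.61% and 29.8%, then 0.768% and 35.4%. Trrap had 22.5% and 32%, then 9.97% and 30.7%, and Tbp had 8.76% and 22.5%, then 9.33% and 63.9%.

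Other paralogues also differed in coverage. Taf4 had 75.4% and 78.4% in mESCs and 53.0% and 70.4% in MEFs, whereas Taf4b had 5.49% and 6.09%, then 0% and 8.24%. Taf5l had 89.7% and 94.1%, then 46.1% and 81.1%, and Taf5 had 15.3% and 15.9%, then 5.16% and 27.3%. Taf6 had 37.8% and 81.3%, then 0% and 27.3%, and Taf6l 44.2% and 45.7%, then 0% and 40.1%. Med13l had 65.0% and 84.4%, then 65.6% and 80.7%, a range shared by both cell types, and Med13 had 4.67% and 19.5%, then 16.1% and 67.4%. Tada2a had 10.54% and 39.8%, then 0% and 26.7%.

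Around the TSS, most members were inside an H2Bub1 peak already at the start in Atxn7l3-/- cells and fewer were in WT. At the TSS itself 31.7% of members were inside a peak in WT and 78.3% in Atxn7l3-/- mESCs (18.7% and 39.6% of all genes), and 6.67% and 80.0% in MEFs (3.65% and 36.1% of all genes). At 1000 bp upstream 13.3% and 35.0% of members were inside a peak in mESCs and 5.00% and 38.3% in MEFs (7.16%, 18.3%, 2.39% and 18.3% of all genes). The highest share in mESCs was 58.3% in WT, first reached at 200 bp, and 96.7% in Atxn7l3-/-, first reached at 350 bp. In MEFs it was 35.0%, first reached at 2200 bp, and 96.7%, first reached at 950 bp. The all-gene maxima were 33.2% in WT and 48.9% in Atxn7l3-/- mESCs, then 12.8% and 47.1% for MEFs. At 5000 bp past the TSS, gene ends ignored, 33.3% and 58.3% of members were inside a peak in mESCs and 15.0% and 78.3% in MEFs (14.9%, 28.0%, 10.2% and 35.3% of all genes). In Atxn7l3-/- cells the share at that distance was higher in MEFs than in mESCs both for the members and for all genes, and some members, such as Med11 and Taf7, end before it.

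**Figure D3:**
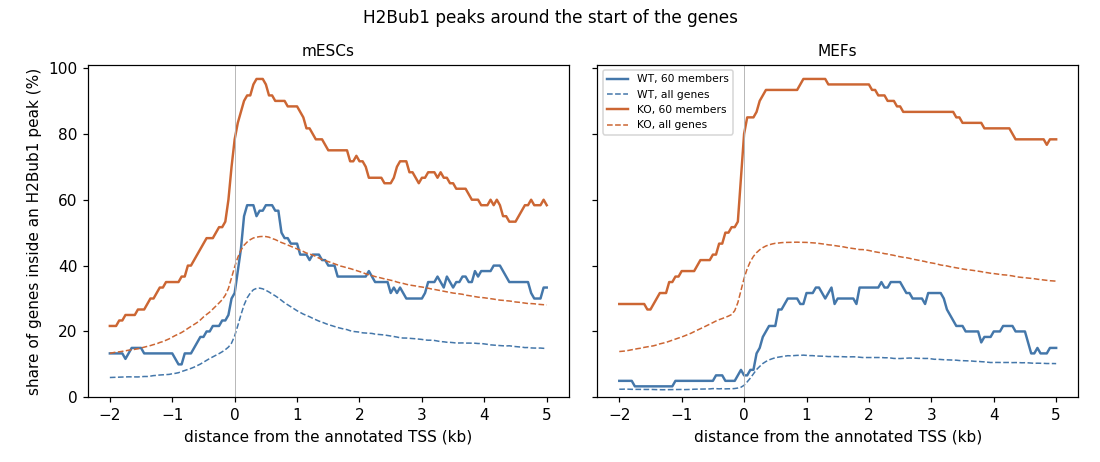
Share of genes inside an H2Bub1 peak (%) by distance from the annotated TSS (kb), for the 60 members (solid lines) and all 20807 autosomal protein-coding genes (dashed lines) in mESCs (left) and MEFs (right), with WT in blue and Atxn7l3-/- (KO) in orange. The solid orange lines reach 96.7% in both cell types.

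In 3 of the 4 lists longer members had a smaller share of their length covered. The members ranged from 1.81 kb (Med11) to 342 kb (Supt3), with a median of 15.8 kb against 17.6 kb for all genes. Over the 60 members Spearman's rho between length and covered share was -0.58 in Atxn7l3-/- mESCs and -0.52 in Atxn7l3-/- MEFs, against 0.02 and 0.10 over all genes, and -0.43 in WT mESCs and 0.12 in WT MEFs. The 21 members of 25 kb or longer (40.4% of all genes are that long) had a median share of 5.49% in WT and 29.8% in Atxn7l3-/- mESCs and 9.97% and 52.0% in MEFs. The 39 shorter members had 33.3% and 59.2%, then 5.62% and 61.5%. Med13l stood outside the order by length, with 173 kb of its 205 kb inside peaks in Atxn7l3-/- mESCs. Med27 (178 kb) had 2.91% and 17.1% in mESCs and 10.4% and 66.6% in MEFs.

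**Figure D4:**
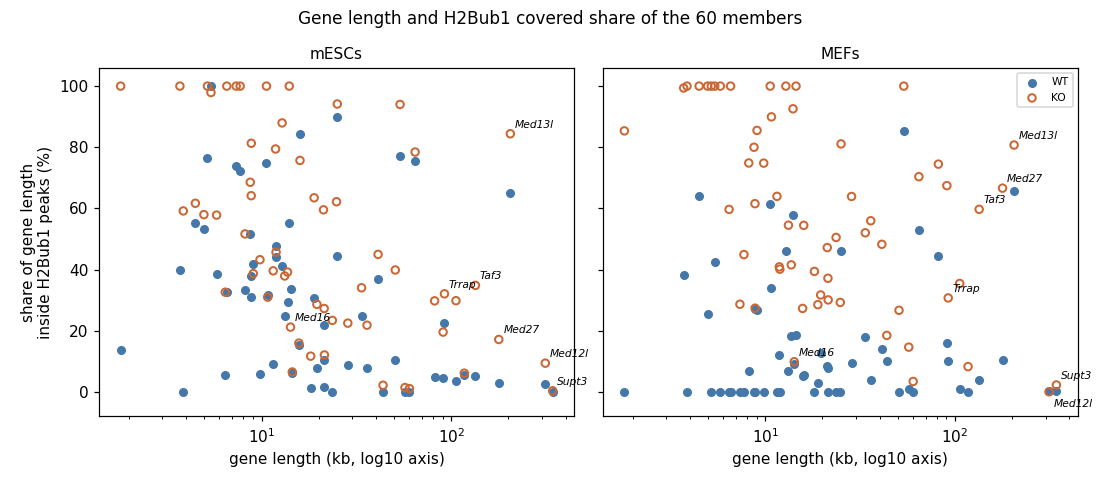
Gene length (kb, log10 axis) and share of gene length inside H2Bub1 peaks (%) for the 60 members in mESCs (left) and MEFs (right), WT filled and Atxn7l3-/- (KO) open, with some genes named beside their Atxn7l3-/- value. Supt3 and Med12l lie at the long end with shares below 10% and Med13l lies above 80% in Atxn7l3-/- cells.

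Within a list, H2Bub1 coverage of the members had little relation to Pol II promoter fold. Spearman's rho between promoter fold and covered share was 0.17 in WT mESCs (39 members), 0.13 in Atxn7l3-/- mESCs (34), 0.14 in WT MEFs (58) and 0.05 in Atxn7l3-/- MEFs (57), against 0.18, 0.07, 0.45 and 0.41 over all genes. Both values of a gene come from lists of separate libraries of the same cells. Between genotypes, rho of the log2 Pol II fold ratio with the H2Bub1 difference was 0.42 over 31 members in mESCs and 0.14 over 57 in MEFs, against 0.04 and 0.13 over all genes. Of the 18 members with no Pol II promoter peak in mESCs of either genotype, 16 had an H2Bub1 peak in WT and 18 in Atxn7l3-/-. Over all genes without such a peak 32.3% and 39.2% did. Med18, for example, had no promoter peak in either mESC list and an H2Bub1 share of 76.5% in WT and 100% in Atxn7l3-/-. At the 8 members with a Pol II peak in WT only, the share was larger in Atxn7l3-/- at 7, all except Med25, with a median difference of 15.4 points, and at the 31 with a peak in both it was 13.2 points. The lists thus gave a wider H2Bub1 domain in Atxn7l3-/- mESCs also where no promoter peak was called there.

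The other genes of the pathway, a list of 33 general transcription factor, Mediator kinase and further SAGA and ATAC genes, was counted beside the members. In mESCs 22 of 33 had a Pol II promoter peak in WT (35.3% of all genes) and 21 in Atxn7l3-/- (32.1% of all genes). Of these, 2 had it in WT only (8.04% of all genes) and 1 in Atxn7l3-/- only (4.85% of all genes). In MEFs 31 of 33 had one in both lists (50.8% of all genes) and none differed. Over all genes 4.43% had one in WT MEFs only and 1.51% in Atxn7l3-/- MEFs only. The H2Bub1 share was larger in Atxn7l3-/- at 29 of 33 in mESCs (54.2% of all genes) and at 29 in both cell types (44.6% of all genes). Their median share was 11.2% in WT and 31.9% in Atxn7l3-/- mESCs and 5.28% and 63.6% in MEFs. They are longer genes, with a median of 29.9 kb.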

How the data were processed

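Peak lists of 8 ChIP-seq libraries were used as deposited. According to the submitters' processing notes and methods, the authors sequenced 50 bp single-end reads, mapped them to mm10 with Bowtie 1.0.0 and called peaks with MACS2 2.1.1.20160309, narrow for Pol II and broad for H2Bub1. The deposited values are the fold over local background, a ratio, and the −log10 p and −log10 q of each peak. How the authors' scaling of libraries entered the peak calls is not given in the sources used here. The methods give n = 1 for each genotype and cell type, without saying whether cells of several embryos were pooled in it.

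Peaks were overlapped (at least 1 bp) with GENCODE M21 genes on the 19 autosomes, using Python 3.11.15, numpy 2.4.6, scipy 1.17.1 and pandas 2.3.3. The promoter was the TSS with 1000 bp on either side, and the Pol II body began 1000 bp past it. The covered share is the percent of gene length inside H2Bub1 peaks. With 1 library per group no test was run and no p-value is given. Intervals of shares (exact Clopper-Pearson) and of medians (from the order of the values) have a confidence of 95% and cover counting error only, and read depth is unknown. A fold ratio of 1.5 was used to describe differences. All members could be named. Values, though not from every list, were given for those whose promoter peak was called in 1 genotype only and for members with no peak. Others were the 5 largest and 5 smallest H2Bub1 differences per cell type, the 3 highest folds per list, paralogue pairs, Trrap and Tbp. The members and lists were chosen with earlier results of these data known. Alternatives were equal numbers of peaks, a minimum −log10 q of 3, other windows and starts, and members far from other genes. The overlap code was tested on simulated peaks over 6876 genes and recovered 100% of the planted calls.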

Additional observations from a re-analysis of the deposited data

Results flagged for a closer look

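At 6 members the covered H2Bub1 share differed between genotypes in opposite directions in the 2 cell types, with 1 library on each side, and this difference was not tested. Opposite directions were seen at 5.30% of all genes (1103 of 20807), beside 10% of the members. The all-gene base includes genes with an equal share in both genotypes, which cannot be opposite. In MEFs 11200 genes had a larger and 110 a smaller share, whereas every member differed. The percentages are therefore not on a like base. Differences are given as Atxn7l3-/- minus WT in percentage points. Med25 had -8.62 in mESCs and 48.8 in MEFs. Med28 had -3.02 and 58.8, Med22 had -2.10 and 57.6, and Taf1d had -0.72 and 56.0. For Med22 and Taf1d the mESC value was close to 0, and Med22 was already covered over 100% in WT mESCs. Med16 had -12.6 in mESCs and 0.837 in MEFs, and Med12l had 6.90 in mESCs and -0.26 in MEFs, where its WT share was 0.26%.

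The median log2 ratio of Pol II promoter fold, Atxn7l3-/- over WT, had opposite signs, 0.062 in mESCs over 31 members and -0.14 in MEFs over 57. This was not tested, and the medians over all genes were 0.02 and -0.22. Of 30 members with a ratio in both cell types, 14 were higher in Atxn7l3-/- mESCs and lower in Atxn7l3-/- MEFs, 5 had the reverse, 8 were lower in both and 3 were higher in both. Over 5437 genes these shares were 34.7%, 15.1%, 32.9% and 17.3%.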

How the results depend on the processing

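Of 96 values of 16 results under 10 alternatives, 75 moved by less than the 95% interval of the main value, 21 moved by more and 0 reversed. With peaks of a −log10 q of at least 3, the median covered H2Bub1 share was 0.527% in WT and 23.3% in Atxn7l3-/- mESCs, and 0% in WT MEFs. Over the first 5000 bp of the gene it was 38.7% and 78.1% in mESCs and 17.3% and 100% in MEFs. With the Pol II body taken from 300 bp, 53.3% and 41.7% of members had a body peak in mESCs and 95% and 90.0% in MEFs. Over all genes these shares were 37.4% and 29.5%, then 59.8% and 55.5%. With the body from 1000 bp, the 16 members at least 5000 bp from another gene had 6.25% and 6.25%, and 31.25% and 18.75%. Over the same 16, a larger share in Atxn7l3-/- was seen at 100% in mESCs and 100% in MEFs, a promoter peak in Atxn7l3-/- only at 0% in mESCs and in WT only at 0% in MEFs, and the MEF median log2 ratio was -0.50. With the narrow promoter, WT only held 0% in MEFs and Atxn7l3-/- only held 1.67% (Supt7l). The cause was not tested. The requirement that the other genotype lack any peak within 5000 bp was chosen after seeing the data and moved no count by more than its interval. No paired analysis was possible because each group has 1 library. Leaving out a library was not possible for the same reason. Read depth is unknown, so a promoter with no called peak is not shown to lack Pol II.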

Other observations

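The X-linked subunit genes Med12, Med14, Taf1, Taf7l and Taf9b were not among the members, which are autosomal. Med14, the Mediator backbone gene, had a Pol II promoter fold of 3.44 in WT and 6.48 in Atxn7l3-/- mESCs and 23.6 and 20.5 in MEFs. Med12 had no peak in WT mESCs, 5.32 in Atxn7l3-/- mESCs, and 11.2 and 4.93 in MEFs. Taf1, the gene of the largest TFIID subunit, had 4.01 in WT mESCs, no peak in Atxn7l3-/- mESCs, and 9.84 and 6.08 in MEFs. Taf9b had a promoter peak in WT MEFs alone, with 17.4, and Taf7l had none in any list. Their H2Bub1 shares were low. The largest of the 5 was 0.627% in WT and 20.5% in Atxn7l3-/- mESCs and 2.25% and 12.9% in MEFs, beside member medians of 27.0%, 41.5%, 6.83% and 57.8%.

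Over its whole length Atxn7l3 was inside H2Bub1 peaks over 100% in WT and 62.5% in Atxn7l3-/- mESCs, and over 22% and 65.3% in MEFs, so most of what was covered in Atxn7l3-/- cells lay outside the span from exon 2 to exon 12. Its Pol II promoter fold was 3.61 and 3.71 in mESCs and 20.9 and 23.4 in MEFs. The promoter lies outside that span and checks nothing about the deletion.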
